A study of Mus musculus with 17 samples.

Results

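The comparison described here is that of kidneys labelled CCN2 KO sham with kidneys labelled WT sham, which asks what the deletion of CCN2 did to the cortex of mice whose renal vessels were never clamped. It rests on 8 of the 17 kidneys of the series. The labelled wild types are kidneys 32A1, 32A2, 33A1 and 33A2 and the labelled knockouts are kidneys 32B4, 32B5, 33B3 and 33B4. All genes of the deposited table were read, and values below are always given in that order, wild type first. The other 9 kidneys, 4 WT IRI and 5 CCN2 KO IRI, had ischemia–reperfusion injury and are used only to estimate the spread and for a reading at the end. All mice were males of 12 to 14 weeks on a C57Bl6/J background that carried floxed Ccn2 alleles and the ROSA26CreERT2 transgene, a Cre recombinase that is made in all tissues and becomes active with tamoxifen. Over 7 days they received 4 injections of corn oil (WT) or of tamoxifen in corn oil (CCN2 KO), followed by a washout of 14 days. The sham kidneys were reached through the same abdominal incision, without clamping, and were taken 4 h later. Tamoxifen exposure, Cre activity and loss of CCN2 therefore go together in the knockout group and cannot be told apart. The time of day of surgery or collection, and the meaning of the prefix 32 or 33 in the kidney names, are not given in the sources used here. Each sham group holds 2 kidneys of each prefix, and all IRI kidneys are of prefix 33.

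CCN2, also called connective tissue growth factor, is a secreted matricellular protein. It binds integrins, heparan sulfate proteoglycans, growth factors and LRP receptors at the cell surface, and its gene is a standard target of the YAP and TEAD transcription factors. In the healthy kidney it is made mainly by podocytes and some tubular and interstitial cells, and it rises in fibrosis and after injury.

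What was measured is the deposited quantile-normalized log2 RPKM (reads scaled to transcript length and to the size of the library), so a difference of 1 is a 2-fold difference in level. Read counts were not at hand and the depth is unknown. Between 15514 and 17055 genes lay above the floor of −3.32 (an RPKM of 0.1) in each sham kidney, the fewest in 32A2 and the most in 33B3, and any pair of sham kidneys correlated at 0.90 to 0.96 across the 12608 genes tested. Kidney 32B5 stood apart from the other labelled knockouts in many of the genes below, and results are therefore given with and without it. Over all genes it did not stand apart. Its median correlation with the other sham kidneys was 0.936, within the range of the others, 0.918 (32A2) to 0.944 (33A1). In the fit with sample weights its weight of 0.40 lay between those of 32A2 (0.36) and 32B4 (0.47). Ctgf, the gene of CCN2, measured 2.65, 3.95, 3.91 and 4.26 in the WT sham kidneys and 2.87, 2.95, 3.92 and 3.91 in the CCN2 KO sham kidneys. The groups overlapped, and the log2 difference of −0.28 ± 0.37 (SE) had a p of 0.571 in an exact permutation test (two-sided, smallest p possible 0.0286). Loss of CCN2 was not seen in the level of the whole gene, and which exons the floxed allele loses is not given in the sources used here. Every direction below is one between kidneys labelled CCN2 KO sham and WT sham. Of the other CCN genes only Cyr61 passed the filter, at a log2 difference of −0.34 (adjusted p = 0.81), and 4 lay below it.

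Across the 12608 genes tested with limma, 0 passed an adjusted p of 0.05 (0%). At an unadjusted p of 0.05, 872 genes were higher in the kidneys labelled CCN2 KO (6.92% of all) and 768 were lower (6.09%). The words higher and lower below refer to this unadjusted threshold, and none of these genes passed the adjusted one with all 8 kidneys in the model used here. With the prefix as a term and sham kidneys alone 5 genes passed, among them Rn7sk, Snord17 and Ndrg1, and with sample weights 6 did, Hs2st1, Prkacb, Adar, Ciart, Glis1 and Ndrg1. In 594 genes (4.71%) the 4 knockout and the 4 wild-type values did not overlap. The genes described below are therefore read by their values in each kidney, with a list's counts set against these shares. Without 32B5, 136 genes passed the adjusted threshold (1.08%), 72 of them higher and 64 lower, while 1408 (11.2%) were higher and 1198 (9.5%) lower at the unadjusted one. Leaving out any other single kidney let at most 2 genes pass.

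The kidneys labelled CCN2 KO sham had lower values of several abundant small RNAs, and in those shown here 32B5 lay with the other knockouts. Genes whose sham groups do not overlap were favored in the choice of genes to name, so that the place of 32B5 in them is a description only. Genes chosen by the fit without 32B5 are favored to show the reverse. Rn7sk is the 7SK RNA, the scaffold that holds the elongation factor P-TEFb inactive. Rmrp and Rpph1 are the RNA subunits of RNase MRP, which cuts ribosomal RNA precursors, and of RNase P, which trims the front end of transfer RNA precursors. All 3 are made by RNA polymerase III and carry no poly(A) tail, whereas the libraries were made from RNA bound to poly(A) beads. Rn7sk (ENSMUSG00000065037) lies on the minus strand of GRCm38 at chr9:78175303-78175633. Its first 60 bases in GENCODE M21 are shown, with the 2 GATC stretches that they hold in capitals:
Rn7sk: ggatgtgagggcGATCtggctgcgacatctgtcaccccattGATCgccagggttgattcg
The last 40 bases of the 3 RNAs (Rmrp at chr4:43492788-43493058 and Rpph1 at chr14:50807449-50807767, both on the minus strand) are shown because their 3′ ends are what poly(A) beads would have to hold. None ends in a run of A, and the final T run of Rn7sk, the polymerase III terminator, is in capitals:
Rn7sk: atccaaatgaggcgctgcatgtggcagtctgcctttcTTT
Rmrp: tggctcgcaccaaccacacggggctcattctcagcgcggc
Rpph1: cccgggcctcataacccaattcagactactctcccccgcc
The longest run of A anywhere in them is 3 bases in Rn7sk, 3 in Rmrp and 2 in Rpph1.

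The log2 RPKM of Rn7sk was 9.70, 10.31, 9.70 and 9.54 in the WT sham kidneys and 8.53, 8.74, 8.20 and 7.69 in the CCN2 KO sham kidneys. All 4 knockout kidneys lay below all 4 wild-type ones, a log2 difference of −1.52 ± 0.33 (SE; 2.87-fold lower, adjusted p = 0.18). Rmrp showed the same order, with 7.34, 8.41, 7.34 and 7.26 in the WT and 6.19, 6.27, 6.04 and 5.30 in the CCN2 KO sham kidneys (log2 difference −1.63 ± 0.36, adjusted p = 0.19). For Rpph1 the values were 7.72, 8.02, 7.59 and 7.39 against 6.68, 7.04, 6.67 and 5.42, again without overlap (log2 difference −1.23 ± 0.34, adjusted p = 0.22). Wild-type kidney 32A2, the one with the fewest genes above the floor, was the highest of the 8 for each of these RNAs. Within the prefixes the differences were −1.37 and −1.67 for Rn7sk, −1.64 and −1.63 for Rmrp and −1.01 and −1.44 for Rpph1 (prefix 32 first). Genes with a small p and no overlap over all 8 kidneys are favored to have like values in both prefixes, so that this likeness is a description only. Without 32B5, Rn7sk passed at an adjusted p of 0.047 and Rmrp at 0.0497, while Rpph1 stood at 0.053. Rn7sk also passed with the prefix as a term and sham kidneys alone.

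**Figure D1:**
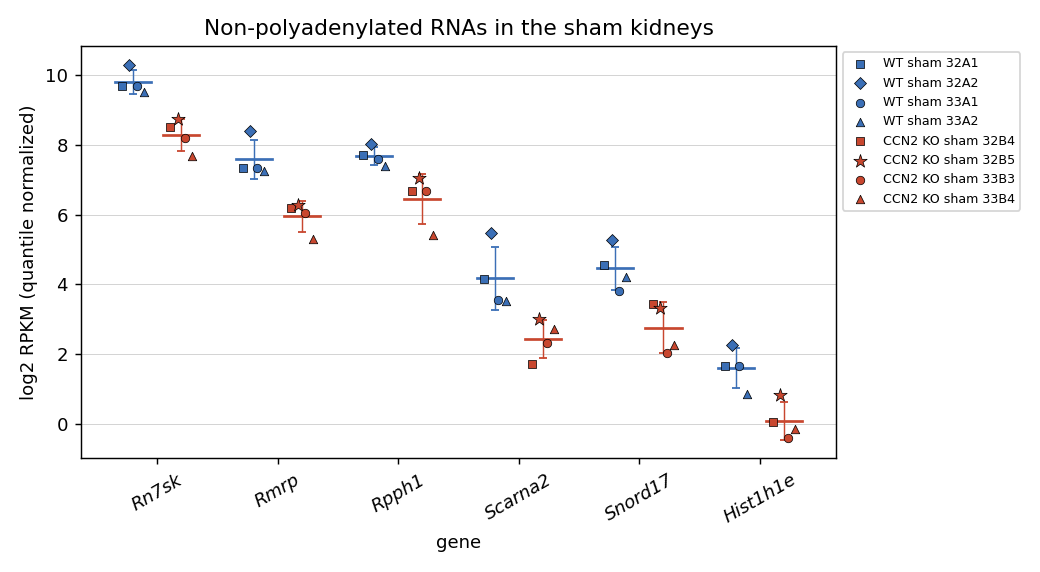
Quantile-normalized log2 RPKM (vertical axis) of 6 RNAs without a poly(A) tail in each sham kidney, with 1 symbol per kidney, blue for WT and red for CCN2 KO; long bars are group means and error bars the SD over 4 kidneys. For each of the 6, all 4 CCN2 KO values, 32B5 (star) included, lie below all 4 WT values.

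Scarna2 and Snord17 followed the same order. Scarna2, a guide RNA of Cajal bodies, measured 4.17, 5.46, 3.56 and 3.52 in the WT and 1.72, 3.0, 2.30 and 2.70 in the CCN2 KO sham kidneys (log2 difference −1.74 ± 0.50). Snord17, a nucleolar guide RNA, measured 4.54, 5.28, 3.82 and 4.20 and 3.43, 3.32, 2.02 and 2.25 (log2 difference −1.70 ± 0.49), and both sets of values were apart. A list of small RNAs without a poly(A) tail was hand-written with earlier results of these data known. Its counts are therefore no independent evidence. Of its 26 members 15 passed the filter, and of these 1 was higher (background 6.92%) and 7 were lower (background 6.09%) at an unadjusted p of 0.05. Their median log2 difference was −0.50, against 0.02 for all genes tested, but it rested on 32A2, without which it was 0.23 with 1 higher and 6 lower. Leaving out another kidney gave medians from −1.32 (without 33A2) to −0.51 (without 32A1). Without 32B5, 0 were higher and 7 lower. The 7 lower ones were Rn7sk, Rmrp, Rpph1, Scarna2, Snord17, Snora73b (−1.56) and Snord118 (−2.68, at the floor in 33B3 and 33B4). In Snora73b and Snord118 the value of 32B5 lay within the WT range (1.57 and 1.14). The higher one was Rnu73b (2.47), at the floor in 2 of the WT kidneys. Outside the list, the snoRNA Gm22620, chosen after its values were seen, went the other way. It was at the floor of −3.32 in all 4 WT kidneys and measured 0.85, 0.17, 0.93 and 1.15 in the CCN2 KO kidneys (adjusted p = 0.18; 0.0497 without 32B5), and it passed with sham kidneys alone, with or without the prefix as a term. The summed RPKM of the list ran from 1116 to 2004 in the WT kidneys and from 309 to 697 in the CCN2 KO kidneys.

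Seen by annotation class, 211 snoRNA, scaRNA, snRNA, misc_RNA and ribozyme genes passed the filter, of which 26 (12.3%) were lower and 7 (3.32%) higher, with a median of −0.20. That median ran from −0.48 to −0.04 with single kidneys left out. Many of the lower genes lay at the floor in CCN2 KO kidneys, among them Gm24336, Gm23027 and Gm25788, and the part of detection at an unknown depth was not tested. Among 11493 protein-coding genes 679 (5.91%) were lower and 834 (7.26%) higher, with a median of 0.03. The replication-dependent histones, whose messages also end without a poly(A) tail, had 4 of 9 tested genes lower and 0 higher, with Hist1h1e, a linker histone, at 1.64, 2.25, 1.64 and 0.84 in the WT and 0.04, 0.83, −0.41 and −0.16 in the CCN2 KO sham kidneys (log2 difference −1.52 ± 0.59, adjusted p = 0.31). Without 32A2, however, 0 of the 9 were lower, and without 32A1 or 32B5 2 were. The other 3 were Hist1h4d (−1.47), Hist1h4i (−0.89) and Hist1h2bc (−0.40), members of a family of near-identical genes whose reads may be split. The 2 mitochondrial ribosomal RNAs measured 14.11, 15.04, 14.82 and 14.82 (mt-Rnr1) in the WT and 14.33, 13.92, 13.44 and 13.22 in the CCN2 KO sham kidneys, with a log2 difference of −0.97 ± 0.38, and mt-Rnr2 differed by −1.11 ± 0.43. Both calls were lost without 32A2, 33B3 or 33B4. The other 9 mitochondrially encoded genes tested did not pass the unadjusted threshold. How far the efficiency of poly(A) selection differed between libraries, and its part in these differences, was not tested.

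The proteins that work with these RNAs were read from separate lists. Of 10 tested subunits of RNase P and RNase MRP, 0 were higher and 3 were lower, namely Pop4 (−0.36 ± 0.15), Pop5 (−0.34 ± 0.14) and Rpp40 (−0.41 ± 0.15), and the median was −0.26. The count of lower ones ran from 1 (without 32B4 or 33B3) to 5 (without 32B5) when single kidneys were left out. For Rpp40 the WT values were 0.89, 1.01, 0.99 and 1.15 and the CCN2 KO values 0.53, 0.62, 0.60 and 0.66, without overlap. Of 19 genes for P-TEFb, its 7SK-bound inhibitors and their partners, 3 were higher and 1 was lower (median 0.11). The higher count was 0 without 33A1, 32B4 or 33B4 and 1 without 32A1 or 33A2, the lower count was 0 without 32A1, 32A2, 33A2, 32B4 or 33B3, and the median without 32A2 was −0.0037. They included Ccnt1, the cyclin subunit of P-TEFb (0.26 ± 0.12), and Nelfb, a subunit of the pausing factor NELF (−0.19 ± 0.09). Among 28 genes for RNA polymerase III and its factors 1 was higher (3.57%) and 2 were lower (7.14%), near the background. Polr3f was higher (0.28) and Snapc4, which recruits the polymerase to 7SK-type promoters, was lower (−0.39). The higher call was lost without 32A1, 32A2, 33A1, 33B3 or 33B4, and the lower ones numbered 6 without 32B5, 4 without 33A1 and 1 without 33B3.

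In several genes of the circadian clock 32B4, 33B3 and 33B4 lay apart from the WT kidneys and 32B5 lay with them, although in Tef and Per3 it lay with the other labelled knockouts. In the clock the activators CLOCK, NPAS2 and BMAL1 (the product of Arntl) drive, through E-box motifs, the genes of their own repressors (Per, Cry, Ciart), of the nuclear receptor REV-ERBα (Nr1d1), which represses Arntl, Npas2, Cry1 and Nfil3 through RORE motifs, and of the D-box factors Dbp and Tef. Arntl measured −2.17, −1.94, −0.32 and 0.00 in the WT and 2.07, −1.24, 0.67 and 0.89 in the CCN2 KO sham kidneys. Kidneys 32B4, 33B3 and 33B4 lay above every WT kidney and 32B5 lay within the WT range (log2 difference 1.71 ± 0.60 with it, adjusted p = 0.28; 2.32 without it, adjusted p = 0.0497). Cry1 measured −0.52, 1.42, 0.09 and −0.05 in the WT and 2.64, −0.37, 2.18 and 2.4 in the CCN2 KO kidneys, with the same 3 kidneys on top (1.48 ± 0.51, adjusted p = 0.27; 2.17 without 32B5, adjusted p = 0.014). For Npas2 the difference was 0.98 ± 0.45, or 1.52 without 32B5.

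The targets at the other end of the cycle were lower. Dbp, a D-box activator, measured 6.32, 5.78, 5.95 and 6.01 in the WT and 3.90, 6.20, 4.49 and 4.51 in the CCN2 KO sham kidneys. The value of 32B5 was within the WT range and the other 3 were below it (−1.24 ± 0.35, adjusted p = 0.22; −1.72 without 32B5, adjusted p = 0.0094). Nr1d1 measured 4.80, 4.00, 5.27 and 5.33 and 2.98, 5.49, 3.55 and 3.45, and in 32B5 it was above every WT kidney (−0.98 ± 0.44; −1.52 without 32B5, adjusted p = 0.048). Ciart, a repressor of BMAL1 also called Chrono, was the clearest of the set, with 3.40, 2.99, 3.76 and 3.72 in the WT and 2.24, 3.06, 2.17 and 1.95 in the CCN2 KO kidneys. Here 32B5 lay just above the lowest WT kidney (−1.11 ± 0.22, adjusted p = 0.15; −1.35 without 32B5, adjusted p = 0.0094). Tef, at 5.89, 6.00, 5.78 and 5.88 against 5.25, 5.69, 5.41 and 5.63, was apart in all 8 kidneys but by less (−0.39 ± 0.16), and Per3, a period gene, measured 3.43, 3.54, 2.66 and 2.80 against 2.19, 2.62, 2.68 and 2.64 (−0.58 ± 0.19), with 32B5 below every WT kidney.

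**Figure D2:**
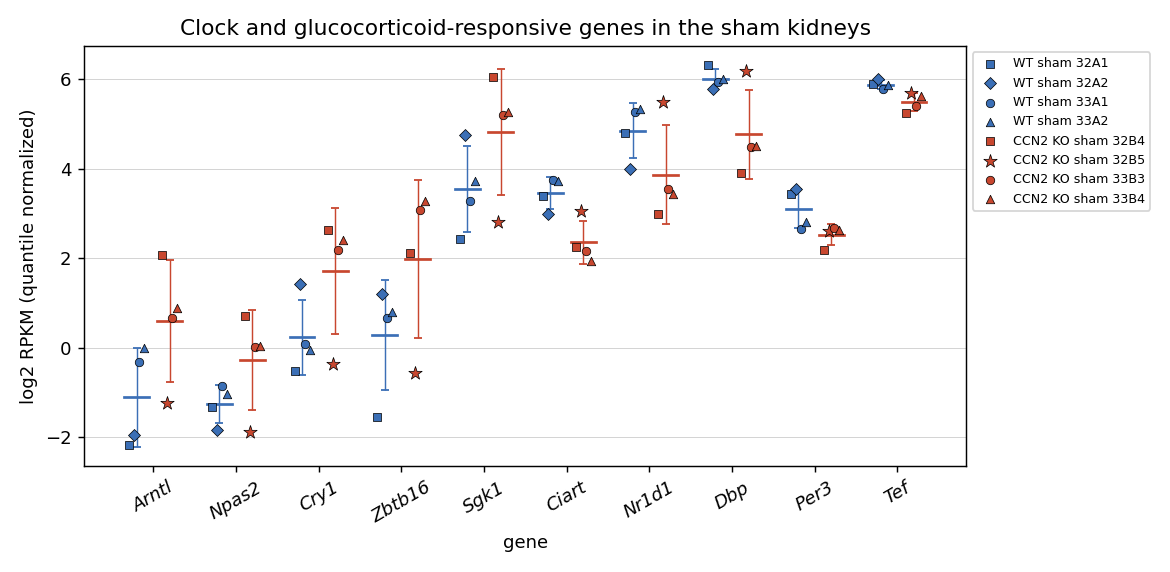
Quantile-normalized log2 RPKM (vertical axis) of 8 clock genes and of Zbtb16 and Sgk1 in each sham kidney, with 1 symbol per kidney, blue for WT and red for CCN2 KO; long bars are group means and error bars the SD over 4 kidneys. For Arntl, Cry1, Dbp and Nr1d1 the star (32B5) lies with or beyond the WT kidneys, away from 32B4, 33B3 and 33B4.

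All 25 genes of the clock list passed the filter. Their summed RPKM was 389 to 419 in the WT and 352 to 367 in the CCN2 KO kidneys, with 32B5 the lowest of all. At an unadjusted p of 0.05, 3 were higher and 5 lower, with 1 (Tef) apart in all kidneys and 0 past the adjusted threshold. Without 32B5, 7 were higher (background 11.2%) and 5 lower (background 9.5%), and 3 higher and 3 lower genes passed the adjusted threshold (background 1.08%). Without 32B4 the counts were 1 higher and 3 lower, and without 32A1 or 33B3 they were 2 and 3. The 6 genes past the adjusted threshold were Arntl, Cry1, Npas2, Ciart, Dbp and Nr1d1. Nfil3, a D-box repressor, measured 0.92, 0.90, 1.39 and 0.23 in the WT and 2.58, −0.38, 2.77 and 2.57 in the CCN2 KO kidneys, with 32B5 the lowest of all 8 (1.02 ± 0.62; adjusted p = 0.065 without it). Clock (0.25), Per1 (−0.07), Per2 (−0.03) and Cry2 (0.04) did not pass the unadjusted threshold. Dbp shares exon bases with Sphk2 and Nr1d1 with Thra on the opposite strand, and the strand setting of the counting is not given in the sources used here. For the same reason the values of Rmrp (Ccdc107), Ndrg1 (Gm17035), Adar (Chrnb2) and Dll1 (A930024N18Rik) are uncertain, as are those of Arntl (Gm45355), Tef (Gm17597), Cyp24a1 (Pfdn4), Il34 (Gm15894) and Ctgf itself (Gm15270) and that of Rpph1, which overlaps Ccnb1ip1 on its own strand. In all, 63 of the 189 named genes share exon bases with another gene.

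The promoters of 3 of these genes are printed because they hold the motifs by which the clock is known to act. RefSeq windows of 300 bases (250 before to 50 after the start, GRCm38.p6) existed for 19 of the 25 clock genes. The E-box CACGTG, its own reverse complement, was in windows of 5 of the 19 (Bhlhe41, Ciart, Cry1, Per1 and Tef) and in 7.15% of all 32851 windows. The D-box TTATGTAA, searched on both strands, was in 1 (Per3) and in 0.938% of all. The RORE core TAGGTCA, on both strands, was in 2 (Arntl and Nfil3) and in 2.61% of all. The clock counts are by gene and the shares by window. Csnk1e, Clock, Arntl, Per1 and Tef have several windows each, so that the measures are not alike. Capitals mark E-boxes in Ciart (chr3:95882179-95882478, minus strand) and Cry1 (chr10:85185005-85185304, minus strand) and D-boxes in Per3 (chr4:151044616-151044915, minus strand):
Ciart: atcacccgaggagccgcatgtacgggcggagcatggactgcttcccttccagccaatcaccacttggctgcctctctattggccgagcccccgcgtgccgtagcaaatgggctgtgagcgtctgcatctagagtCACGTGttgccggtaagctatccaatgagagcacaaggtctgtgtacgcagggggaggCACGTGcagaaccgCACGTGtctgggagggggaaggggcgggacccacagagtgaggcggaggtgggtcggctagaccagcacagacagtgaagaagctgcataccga
Cry1: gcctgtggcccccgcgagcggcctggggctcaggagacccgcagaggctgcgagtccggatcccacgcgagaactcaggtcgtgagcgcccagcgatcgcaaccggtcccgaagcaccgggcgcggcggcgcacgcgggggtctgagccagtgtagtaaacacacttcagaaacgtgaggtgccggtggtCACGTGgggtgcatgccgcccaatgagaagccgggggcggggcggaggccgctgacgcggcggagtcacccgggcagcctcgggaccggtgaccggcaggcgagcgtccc
Per3: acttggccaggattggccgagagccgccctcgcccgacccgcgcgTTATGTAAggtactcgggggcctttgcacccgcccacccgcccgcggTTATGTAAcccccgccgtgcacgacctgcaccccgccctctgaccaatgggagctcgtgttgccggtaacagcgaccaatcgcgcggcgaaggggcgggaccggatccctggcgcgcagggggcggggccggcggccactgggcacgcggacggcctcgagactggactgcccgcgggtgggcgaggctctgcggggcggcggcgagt
Ciart has 3 E-boxes in its window and Cry1 has 1, while their levels differed in opposite directions. A match is a description of the sequence and not a binding site.

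Some genes known to respond to glucocorticoids, the steroid hormones of the adrenal cortex, showed the same division of the kidneys. Zbtb16, a transcription factor induced by the glucocorticoid receptor, measured −1.54, 1.21, 0.68 and 0.80 in the WT and 2.12, −0.56, 3.09 and 3.28 in the CCN2 KO sham kidneys. Kidneys 32B4, 33B3 and 33B4 were above all WT kidneys and 32B5 was not (1.70 ± 0.69, adjusted p = 0.33; 2.54 without 32B5, adjusted p = 0.045). Sgk1, the kinase that raises sodium uptake in the distal nephron, measured 2.44, 4.76, 3.29 and 3.72 and 6.06, 2.80, 5.20 and 5.27 (1.28 ± 0.57; 1.95 without 32B5, adjusted p = 0.0497). Of 17 genes of the list 4 were higher and 0 lower, the others being Klf9 (0.70) and Sult1a1 (0.60), and the median was 0.30. Without 32B5, 7 were higher and 0 lower, and Zbtb16 and Sgk1 passed the adjusted threshold. Without 32A1, 33B3 or 33B4, 0 were higher, and without 32B4 2 were. Tsc22d3 (0.52) and Fkbp5 (0.36), widely used markers of the hormone's action, did not pass the unadjusted threshold with 32B5 included, and Dusp1 (−0.56) and Hsd11b1 (−0.71) had negative differences. In the whole list 11 differences were positive and 6 negative. Between the IRI groups the list had a median of −0.24, against 0.02 for all genes. There 1 member was higher and 2 were lower, against 2101 and 1714 of all 12608 genes.

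The 136 genes that passed without 32B5 are in part those in which it departed from the other labelled knockouts, since it was left out for that reason, so that its place on them is a description only. No other kidney was read in this way. On a scale where 0 is the WT mean and 1 the mean of the other 3 labelled knockouts, the median position of 32B5 was 0.03. Its value lay within the range of the 4 WT kidneys for 80 of the 136 genes, beyond that range toward the knockouts for 34 and beyond it on the other side for 22. For the 72 higher genes these counts were 49, 9 and 14, and for the 64 lower genes 31, 25 and 8. Genes whose 32B5 value lay within the WT range, or beyond it away from the other knockouts, included Kbtbd7, an adaptor of a ubiquitin ligase (0.81, 0.87, 0.71 and 1.16 against 1.77, 0.98, 1.75 and 1.91), Kpna1, an importin (1.79, 1.73, 1.84 and 1.95 against 2.48, 1.62, 2.38 and 2.34), and Gsr, glutathione reductase (5.88, 5.89, 6.04 and 5.99 against 6.44, 5.87, 6.47 and 6.36). Rybp, a subunit of a Polycomb complex, was of the same kind (−0.34, −0.61, 0.24 and −0.06 against 1.51, −0.33, 0.95 and 1.03; 1.36 without 32B5, adjusted p = 0.012), as were Bola1 (−0.71), Ushbp1 (−0.73) and Znhit1 (−0.50) among the lower genes. Those whose 32B5 value lay beyond the WT range with the other knockouts included Hs2st1, Ndrg1, Prkacb, Papss2, Lama5, Adar, Tead3, Trim7 and Rn7sk.

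Among genes for the cell surface and the matrix that CCN2 binds, an enzyme of heparan sulfate synthesis stood at the top of the whole comparison. Hs2st1 (chr3:144429706-144570181, minus strand) encodes the 2-O-sulfotransferase of heparan sulfate and had the smallest p of all 12608 genes. It measured 0.88, 1.32, 1.26 and 1.13 in the WT and 1.96, 1.77, 1.90 and 2.08 in the CCN2 KO sham kidneys. The groups were well apart, 32B5 included, with a log2 difference of 0.78 ± 0.13 (1.72-fold higher, adjusted p = 0.15; 0.026 without 32B5). Within the prefixes the difference was 0.77 and 0.80. Papss2 (chr19:32595790-32667187), which makes the sulfate donor PAPS, measured 6.53, 6.46, 6.37 and 6.46 and 6.96, 6.69, 6.91 and 7.07, also without overlap (0.46 ± 0.11, adjusted p = 0.21).

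Of 26 tested genes of heparan sulfate synthesis and sulfation, 4 were higher and 1 lower, with a median of 0.16. Without 32A2, 2 were higher, and the count of lower ones was 0 to 2 with single kidneys left out, the 2 without 32B5. The others were Ext2, a chain polymerase (0.41 ± 0.16), B3galt6, which builds the linker to the core protein (0.52 ± 0.23), and Xylt1, which starts it (−0.74 ± 0.35). Of 10 proteoglycan cores, Gpc3, a glypican, was higher (2.12, 0.86, 1.59 and 1.71 against 2.83, 2.45, 2.06 and 2.39; 0.86 ± 0.26).

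The laminins, trimers that form the basement membrane of tubules and glomeruli, had 2 of 8 tested chains lower and 1 higher. Lama5 (chr2:180176373-180225859), the alpha chain of the mature glomerular laminin, measured 4.93, 4.73, 4.23 and 4.49 in the WT and 3.56, 4.18, 3.58 and 3.96 in the CCN2 KO sham kidneys, with the highest knockout kidney (32B5) just below the lowest wild type (−0.77 ± 0.16, 1.71-fold lower, adjusted p = 0.17; 0.033 without 32B5). Lama1 (chr17:67697259-67822647), the alpha chain of the embryonic form, measured 2.15, 1.55, 1.98 and 1.5 and 0.73, 1.17, 0.97 and 1.24 and was also apart (−0.77 ± 0.18, adjusted p = 0.21). Among 15 other basement membrane genes only Tinag, the tubulointerstitial nephritis antigen, was higher (0.27 ± 0.08) and 0 were lower, although 3 were higher without 33A1 and 2 without 33A2, 32B5 or 33B3. In 12 integrin genes 2 were higher, Itga6, a laminin receptor subunit (0.50 ± 0.18), and Itgb1 (0.26 ± 0.11), but 0 were without 32A1 and 1 was without 32A2, 33B3 or 33B4. Of 16 fibroblast matrix genes 0 were higher and 1, Col5a2, was lower (−0.59 ± 0.23), a call lost without 32A1, 32A2, 32B5 or 33B4, and 2 were higher without 32B4.

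**Figure D3:**
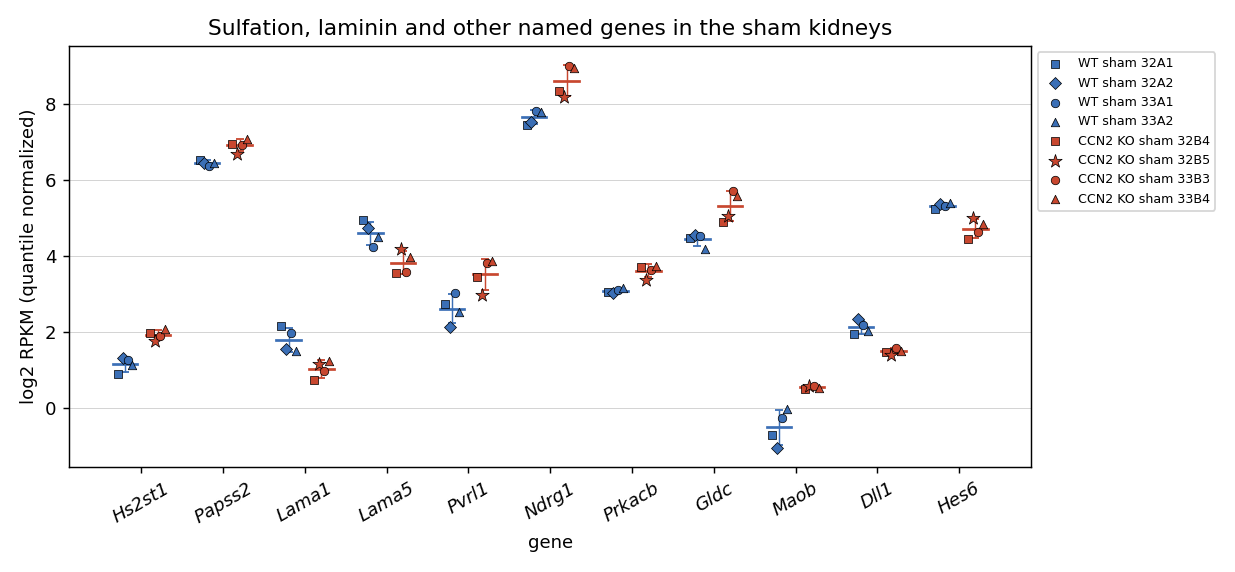
Quantile-normalized log2 RPKM (vertical axis) of 11 genes in each sham kidney, with 1 symbol per kidney, blue for WT and red for CCN2 KO; long bars are group means and error bars the SD over 4 kidneys. All of them except Pvrl1 separate the 4 CCN2 KO kidneys, 32B5 (star) included, from the 4 WT kidneys.

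Of 19 YAP and TEAD genes 2 were higher (1 without 32A1, 32A2, 33A1, 32B4, 33B3 or 33B4 and 5 without 32B5) and 1 was lower (median 0.15), the lower one being Tead3, a TEAD factor itself, at 2.94, 2.78, 2.91 and 2.74 in the WT and 2.37, 2.58, 2.35 and 2.39 in the CCN2 KO kidneys (−0.42 ± 0.09, adjusted p = 0.17; 0.036 without 32B5). This list had 10.5% higher and 5.26% lower, against 6.92% and 6.09% of all genes, and without 32B5 11.2% of all genes were higher. Myc was higher at 1.58, 1.16, 0.53 and 0.50 against 2.09, 1.62, 2.70 and 2.12 (1.19 ± 0.48), by 0.48 in prefix 32 and 1.90 in prefix 33. Of 22 genes of TGF-β and BMP signalling 2 were higher, Bmp6 (0.54 ± 0.19) and Bmpr1a (0.32 ± 0.12), and 2 lower, the receptor genes Bmpr2 (−0.91 ± 0.25) and Acvr2b (−0.86 ± 0.36). Each count is 9.09% of the list, near the background of 6.92% and 6.09%. The whole difference of Acvr2b lay in prefix 32 (−1.92, against 0.20 in prefix 33). The higher count was 1 without 32A2 or 33B4, and the lower count was 1 without 32A1, 32A2 or 32B4.

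In the Notch pathway, Dll1, a ligand, measured 1.93, 2.34, 2.17 and 2.03 in the WT and 1.48, 1.39, 1.58 and 1.49 in the CCN2 KO sham kidneys (−0.63 ± 0.12, adjusted p = 0.15). Hes6, an antagonist of the Notch effector HES1, measured 5.23, 5.36, 5.31 and 5.40 and 4.44, 4.99, 4.62 and 4.83 (−0.61 ± 0.15, adjusted p = 0.21). Both sets were apart, and Dtx4, a ubiquitin ligase of the pathway, was higher (0.62 ± 0.26), so that of 19 tested Notch genes 1 was higher (0 without 32A2) and 2 lower (4 without 32B5). These shares of 5.26% and 10.5% stand against 6.92% and 6.09% of all genes. Prkacb, a catalytic subunit of protein kinase A, had the smallest p of all genes after Hs2st1. It measured 3.06, 3.03, 3.11 and 3.15 in the WT and 3.71, 3.37, 3.64 and 3.73 in the CCN2 KO kidneys (0.52 ± 0.09, adjusted p = 0.15; 0.012 without 32B5), among 24 tested genes of the cAMP pathway with 2 higher and 1 lower. The shares of the cAMP list, 8.33% higher and 4.17% lower, were near the background of 6.92% and 6.09%. The higher count was 1 without 32A1 or 32B4, 4 without 33A2 and 5 without 32B5, and the lower count was 0 without 32A1, 32A2, 33A2, 32B4, 33B3 or 33B4 and 2 without 33A1 or 32B5. Pvrl1, the adhesion molecule nectin-1, measured 2.74, 2.13, 3.03 and 2.53 and 3.43, 2.97, 3.81 and 3.85, with 32B5 below the highest WT kidney (0.91 ± 0.24).

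The study drew a list of sham genes from these same kidneys, so that its counts are no independent evidence. Of its 21 genes, 6 were higher and 15 lower, each at an unadjusted p under 0.05, with groups apart in 5 of the higher and 13 of the lower ones. Their adjusted p ran from 0.15 for Hs2st1 to 0.27 for Gldc, and without 32B5, 5 higher and 8 lower ones passed. Besides those described above, the list holds Zfp641 (3.10, 3.13, 2.49 and 2.68 against 1.92, 2.05, 2.12 and 2.12; −0.80), Trim7, a ubiquitin ligase that binds glycogenin (5.65, 5.59, 5.29 and 5.39 against 4.50, 4.93, 4.82 and 4.90; −0.69), and Zkscan3, a repressor of autophagy genes (4.56, 4.28, 3.90 and 4.10 against 3.65, 3.17, 3.57 and 3.13; −0.83). It also holds Rabggta, a subunit of the enzyme that prenylates Rab proteins (−0.63), Rnf24 (−1.11), Eml5 (−0.81) and Slc4a9, an anion exchanger of intercalated cells (−0.64). Zfp641, Trim7, Zkscan3, Rabggta, Eml5 and Slc4a9 had all 4 labelled knockouts below all 4 wild types.

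The remaining genes with the smallest p were of mixed function. Higher with groups apart were Ola1, an ATPase (2.45, 2.36, 2.71 and 2.65 against 3.32, 3.15, 3.08 and 2.98; 0.59 ± 0.12), Metap2, a methionine aminopeptidase (0.36 ± 0.09), Edc3, an mRNA decapping factor (0.74 ± 0.18), Ippk, which makes inositol hexakisphosphate (0.75 ± 0.18), Lancl2 (0.78), Tbc1d12 (0.78) and Trim32 (0.56). Lower with groups apart were Ppm1j, a protein phosphatase (2.12, 2.20, 1.94 and 1.60 against 0.68, 0.70, 1.18 and 1.27; −1.01 ± 0.18, adjusted p = 0.15), Adar, which edits double-stranded RNA (−0.43 ± 0.09), Mov10, an RNA helicase (−0.50 ± 0.11), Rdh5, a retinol dehydrogenase (−0.60 ± 0.13), Trim11 (−0.57) and Srcap, a chromatin remodeller (−1.10).

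Ndrg1 (chr15:66929318-66969640), a stress-responsive gene of the tubules induced by hypoxia, measured 7.45, 7.53, 7.83 and 7.79 in the WT and 8.34, 8.18, 9.0 and 8.94 in the CCN2 KO sham kidneys. All 4 knockouts were above all wild types, at 1.95-fold (0.97 ± 0.19, adjusted p = 0.15; 0.026 without 32B5). It passed with the prefix as a term and sham kidneys alone and with sample weights. Of 26 hypoxia-inducible genes 4 were higher and 1 lower, and the median was 0.06. Without 32B4, 2 were higher, and without 33B4 the median was 0.0047. Aldoc (0.83), Hif1a (0.50) and Ero1l (0.42) were the other higher ones, and Vegfa, the vascular growth factor, was lower (−0.31). Slc16a1, a lactate and ketone transporter, was higher in all 4 knockouts (1.46, 1.75, 2.33 and 2.35 against 2.64, 2.56, 3.45 and 3.12; 0.97 ± 0.28).

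Gldc, the decarboxylase of the glycine cleavage system, measured 4.48, 4.56, 4.52 and 4.19 and 4.90, 5.05, 5.71 and 5.59 (0.87 ± 0.29, adjusted p = 0.27). Together with Amt (0.33) and Dld (0.34), further proteins of that system, and Mthfd2, a mitochondrial folate enzyme (0.93), it made 4 of 25 one-carbon genes higher and 0 lower (median 0.20), or 2 higher without 32A1 or 32B4. In the degradation of branched-chain amino acids 6 of 23 genes were higher and 0 lower, with a median of 0.09, or 3 higher without 32A1 or 33B4. Aldh6a1 (7.49, 7.64, 7.77 and 8.02 against 8.14, 7.61, 8.37 and 8.55; 0.43 ± 0.17) and Mut, methylmalonyl-CoA mutase (0.43 ± 0.14), had the largest differences of them, and in Aldh6a1 the value of 32B5 lay within the WT range. For tryptophan metabolism the counts were 5 higher and 1 lower of 17, or 3 and 0 without 33A2 and 4 and 2 without 33B3 or 33B4. Maob, monoamine oxidase B, led them at −0.72, −1.05, −0.26 and −0.02 in the WT and 0.49, 0.57, 0.57 and 0.52 in the CCN2 KO kidneys, without overlap (1.05 ± 0.29, adjusted p = 0.22). Maoa (0.64) and Ccbl2 (0.51) were also apart, Kynu (1.01) and Ogdh (0.30) were not, and Ccbl1, a second kynurenine aminotransferase, was the lower one (−0.33).

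Of 30 genes of fatty acid oxidation and PPARα targets 3 were higher (background 6.92%) and 0 lower, and 1 was higher without 32A1 or 33B4. Without 32B5, 13 were higher (background 11.2%) and 1 lower, with a median of 0.38, and 0 passed the adjusted threshold. The summed RPKM of that list was 1642 in 32B5, below the WT range of 2123 to 2370, and 2411 to 3555 in the other 3 labelled knockouts. Its member Cyp4a14, a fatty acid hydroxylase with close paralogs, measured 2.02, 4.71, 2.70 and 2.67 and 5.43, 4.54, 6.62 and 4.52 (2.25 ± 0.80). Foxo1, a transcription factor of fasting metabolism, measured 3.01, 3.32, 3.30 and 3.33 and 3.87, 3.32, 3.96 and 3.87 (0.52 ± 0.15; adjusted p = 0.043 without 32B5). Cyp24a1, which degrades active vitamin D, was lower in 3 of the 4 labelled knockouts (5.88, 4.58, 5.40 and 5.59 against 3.68, 4.98, 3.26 and 2.74; −1.70 ± 0.52; −2.14 without 32B5). Aldh1a7, a retinal and aldehyde dehydrogenase with a near copy in the genome, was higher and apart (2.03, 2.26, 2.38 and 2.17 against 2.76, 3.64, 4.02 and 3.57; 1.29 ± 0.38).

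Marker lists of the nephron gave the following account of the tissue. In whole-cortex RNA, fewer cells of a type and less RNA per cell cannot be told apart. Of 25 markers of the first parts of the proximal tubule 0 were higher and 0 lower (median −0.02), and of 15 of its last segment, S3, 3 were higher, among them Cyp7b1 (1.93, 1.06, 1.07 and 0.48 against 2.97, 1.24, 4.30 and 2.73; 1.67 ± 0.79) and Slc22a19 (1.31), although 0 were higher without 33A1, 33A2, 33B3 or 33B4 and 1 was without 32B4. The thick ascending limb had 4 of 19 markers higher (background 6.92%) and 0 lower (median 0.47), Irx1 (1.25), Irx2 (0.67), Ptger3 (0.61) and Sostdc1 (0.74). The distal convoluted tubule likewise had 4 of 19 higher and 0 lower (median 0.30), Sgk1, Fgf1 (0.63), Calb1 (0.49) and Cnnm2 (0.43). Either count was 1 without 32A1 or without 32B4, and that of the distal convoluted tubule was 2 without 33B4. Without 32B5 the counts were 10 and 11 (background 11.2%), of which 0 and 1 passed the adjusted threshold. The summed RPKM of the thick ascending limb markers was 615 to 916 in the WT kidneys, 563 in 32B5, 990 and 1091 in 33B3 and 33B4 and 1641 in 32B4, the highest of all. Markers of principal cells (0 and 0 of 16), podocytes (0 higher and 1 lower of 17), endothelium (0 and 1 of 19) and smooth muscle and renin cells (0 and 0 of 13) had counts at or under the background.

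Of 17 tested macrophage and dendritic cell markers 0 passed the unadjusted threshold, but 15 had a negative difference (median −0.24), against 5830 of all 12608 genes. Adgre1, Mrc1, Cx3cr1 and Aif1 were below the filter. The summed RPKM of the list was 209.6 to 274 in the WT and 164 to 208.8 in the CCN2 KO kidneys, only just without overlap. In the IRI kidneys the list went the other way, with a median of 0.79. There 10 markers were higher and 1 lower, against 2101 and 1714 of all 12608 genes. Il34, a cytokine made by tubules that keeps macrophages alive, was lower (4.58, 3.59, 4.10 and 4.01 against 3.12, 2.25, 3.79 and 3.53; −0.90 ± 0.26). Red cell markers summed to 199 to 496 in the WT and 295 to 877 in the CCN2 KO kidneys. The defining markers of T and B cells (Cd3e, Cd79a), of the adrenal cortex (Cyp11b1, Star) and of fat cells (Adipoq, Plin1) were below the filter. In 35 interferon-response genes 5 were higher, led by Isg15 (1.19) and Ifi47 (1.13), and 5 lower, Stat2 (−0.43), Irf9 (−0.32), Irf1 (−0.32), Parp9 (−0.38) and Adar, and the differences of Isg15 and Ifi47 were 2.10 and 2.19 in prefix 32 against 0.28 and 0.07 in prefix 33. Without single kidneys the interferon counts ran from 1 higher and 7 lower (without 32B5) to 6 higher and 3 lower (without 33B4), with 2 higher and 4 lower without 32A1. The part of cell composition in the differences above was not tested.

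The title prefix divides the comparison into a pair of smaller ones of 2 against 2 kidneys, which share no kidney. Over all 12608 genes the differences within prefix 32 and within prefix 33 had the same sign in 55.4% and a Spearman correlation of 0.12 (Pearson 0.03), a description across genes, which are not independent replicates. The 100 genes most higher in prefix 32 had a median difference of 1.65 there and −0.08 in prefix 33, and the 100 most lower had −1.53 and −0.24. Chosen in prefix 33, the median of the 100 most higher genes was 1.32 there and 0.01 in prefix 32, and that of the 100 most lower −1.48 and −0.17. The differences of Ndrg1 were 0.77 and 1.16, but genes named for a small p over all 8 kidneys, as Ndrg1, Hs2st1 and Rn7sk were, are favored to have like values in both prefixes. The small RNA classes together had a median of −0.34 in prefix 32 and −0.01 in prefix 33. Ciart (−0.54 and −1.68), Nr1d1 (−0.16 and −1.80) and Cyp24a1 (−0.90 and −2.50) had larger differences in prefix 33, which does not hold 32B5.

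**Figure D4:**
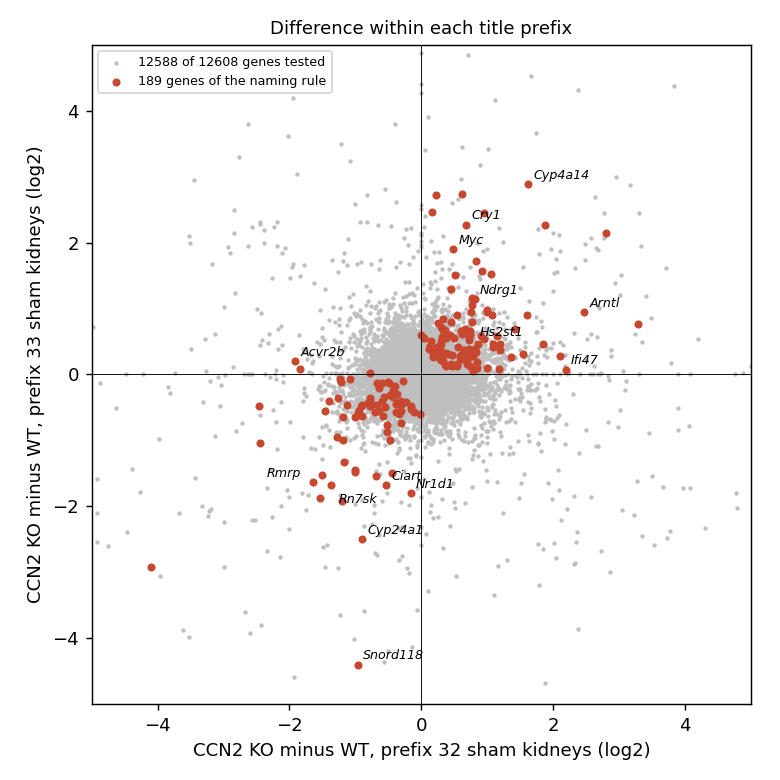
Log2 difference of CCN2 KO from WT sham kidneys within title prefix 32 (horizontal axis) and within prefix 33 (vertical axis), each 2 kidneys against 2, for 12588 of 12608 genes tested (grey; 20 lie outside the axes) and the 189 genes of the naming rule (red). The grey cloud has little slope (Spearman 0.12), and Rn7sk and Rmrp lie near the diagonal in the lower left.

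The IRI kidneys, which share none with the sham comparison, gave a reading of the same differences after injury. All of them carry prefix 33, whereas each sham group also holds prefix 32. Injury and prefix are therefore mixed in this reading and in the test of the difference of differences, and their parts were not separated. The list of small RNAs without a poly(A) tail had a median of −0.65 in the IRI kidneys, against 0.02 for all genes. Of its 15 tested members 0 were higher and 1 lower at the unadjusted threshold, against 2101 and 1714 of all 12608 genes. Across all genes, 1546 (12.3%) passed the adjusted threshold between CCN2 KO IRI and WT IRI. Of the 1640 genes with an unadjusted p under 0.05 in sham kidneys, 1176 (71.7%) had the same sign after IRI, with a Spearman correlation of 0.38 between the differences, against 60.2% and 0.24 over all genes. Differences of the same sign that passed after IRI included those of Papss2 (0.55, adjusted p = 0.0064), Hs2st1 (0.45, adjusted p = 0.027), Ciart (−0.97, adjusted p = 0.0097), Ppm1j (−1.08, adjusted p = 0.0035), Mut (0.59, adjusted p = 0.013), Sostdc1 (1.60, adjusted p = 0.0042) and Rabggta (−0.54, adjusted p = 0.018). These are examples, and the named genes that passed with the same or the opposite sign are not counted here. Rn7sk (−0.16), Rmrp (−0.16) and Lama5 (0.01) had small differences after IRI, and their change between the surgeries did not pass the test of the difference itself. That test, the difference of the CCN2 KO differences, passed in 23 genes (0.182%), among them 5 of the named ones. Zkscan3 differed by −0.83 in sham and 0.66 in IRI kidneys, Jarid2, a Polycomb cofactor, by −0.47 and 0.66, Dll1 by −0.63 and 0.40, Pde4c, a cAMP phosphodiesterase, by −0.37 and 0.87, and Adar by −0.43 and 0.25.

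**Figure D5:**
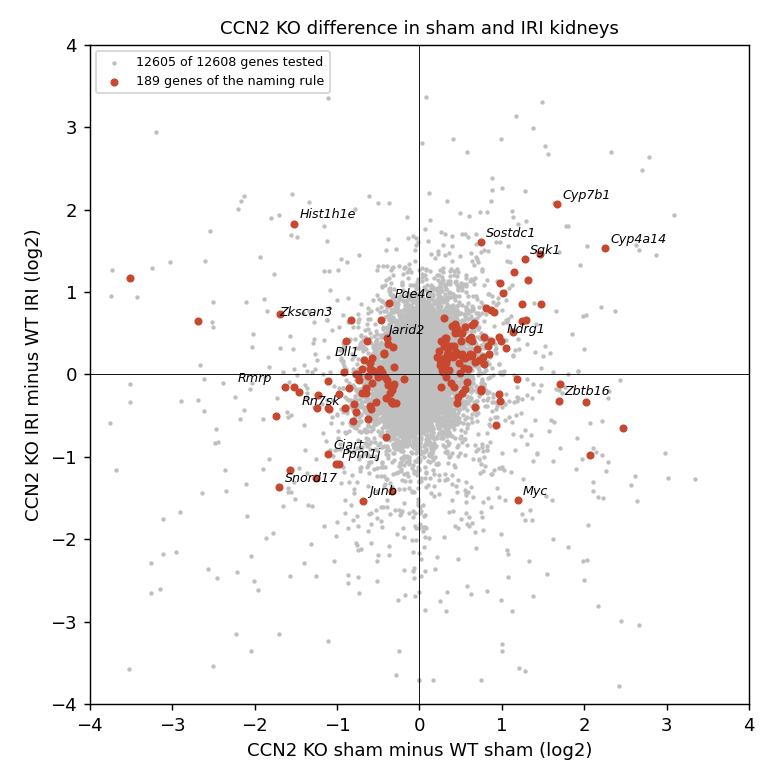
Log2 difference of CCN2 KO from WT in sham kidneys (horizontal axis, 4 against 4) and in IRI kidneys (vertical axis, 5 against 4) for 12605 of 12608 genes tested (grey; 3 lie outside the axes) and the 189 genes of the naming rule (red). Ciart and Sgk1 have the same sign in both, while Zkscan3, Jarid2, Dll1 and Pde4c have opposite signs.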

How the data were processed

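RNA of 17 labelled kidneys was measured by sequencing of poly(A)-selected, directional libraries (NEXTflex poly(A) beads and Rapid Directional kit, NextSeq500, single-end). The authors aligned reads to GRCm38 with STAR 2.4.2a, counted them in the union mode of HTSeq 0.6.1p1, computed RPKM with edgeR and deposited quantile-normalized log2 values. The annotation and the strand setting are not given in the sources used here, and the deposited values keep no depth. A further 13 columns match no labelled sample and were not used.

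Genes with a log2 RPKM above 0 (1 RPKM) in at least 4 of the 17 kidneys were kept. One limma 3.58.1 model (R 4.3.3) fitted the 4 group means with a trended prior and two-sided tests, adjusted by Benjamini-Hochberg over all 12608 genes at a threshold of 0.05. The labels do not say that the kidneys came from separate mice, so p-values measure the spread between these samples. Named were the 12 higher and 12 lower genes with the smallest p and the 8 and 8 with the largest difference among non-overlapping genes, the genes of the study's sham list, the CCN genes, list members at an unadjusted p under 0.05 with up to 4 abundant ones, and the 10 and 10 with the smallest adjusted p without 32B5. Members and lists were chosen with earlier results of these data known. Alternatives were other filters, scalings, a pseudocount of 1 RPKM, sample weights, a prefix term, sham kidneys alone and each sham kidney left out. List counts without 32B5 were added after seeing the data. The fit was tested on simulated data. Some genes that meet the naming rule are not reported here. Bars are SD and ± is SE unless stated. Gene positions are from GENCODE M21 and promoters from RefSeq.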

Additional observations from a re-analysis of the deposited data

Results flagged for a closer look

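Among the named genes, 1 kidney of a sham group lay far from the other 3 in 21 of 378 groups (189 genes in both sham groups), by the gap to its nearest neighbor as a share of the group's range. Chance alone does this in about 1 of 20 unselected groups, or 18.9 of 378. The genes were named from these same kidneys, some of them by leaving out 32B5, so that this rate does not strictly apply. No conclusion is drawn from the number of cases. All values are quantile-normalized log2 RPKM. In CCN2 KO sham kidney 32B4 this held for Elovl5 at 4.154 (others 3.985 to 4.005), Fgf1 at 5.853 (others 5.214 to 5.309), Nelfb at 3.588 (others 3.866 to 3.894), Per3 at 2.186 (others 2.622 to 2.682), Stat2 at 1.992 (others 2.577 to 2.647) and Vegfa at 6.437 (others 6.385 to 6.392). In CCN2 KO sham kidney 32B5 this held for Bmi1 at 3.153 (others 3.655 to 3.739), Cry1 at −0.3734 (others 2.183 to 2.636), Dbt at 4.73 (others 5.216 to 5.265), Foxo1 at 3.323 (others 3.867 to 3.958), Hspd1 at 6.533 (others 7.051 to 7.114), Kpna1 at 1.62 (others 2.344 to 2.478) and Sult1a1 at 3.283 (others 4.059 to 4.151). In CCN2 KO sham kidney 33B3 this held for Mov10 at 3.359 (others 3.076 to 3.094). In CCN2 KO sham kidney 33B4 this held for Bmp6 at 4.557 (others 4.176 to 4.218). In WT sham kidney 32A1 this held for Foxo1 at 3.011 (others 3.298 to 3.326) and Prps2 at 2.857 (others 3.353 to 3.415). In WT sham kidney 32A2 this held for Ccbl2 at 3.59 (others 3.389 to 3.413), Dbt at 5.18 (others 4.677 to 4.749), Metap2 at 3.084 (others 3.19 to 3.206) and Rmrp at 8.409 (others 7.262 to 7.337).

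The difference between CCN2 KO and WT kidneys was itself different after IRI for 5 named genes in limma's test of the difference of differences (IRI minus sham). It was 0.68 for Adar (0.6825, adjusted p = 0.035), 1.03 for Dll1 (1.034, adjusted p = 0.019), 1.13 for Jarid2 (1.131, adjusted p = 0.0086), 1.23 for Pde4c (1.232, adjusted p = 0.042) and 1.49 for Zkscan3 (1.489, adjusted p = 0.0086). For each of the 5 the sham value was negative and the IRI value positive. All IRI kidneys carry prefix 33 and the sham groups hold both prefixes, so that injury and prefix are mixed in this test.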

How the results depend on the processing

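No gene's difference turned its direction under any alternative run for the named genes. Most of them were named for a small p or for separation in these same kidneys, so that a turn was unlikely from the start. The within-prefix differences, which changed sign for Acvr2b, were not among these alternatives. Of the values of the named genes, 3126 kept both direction and side of the adjusted threshold while 56 passed it that had not before. The count of genes past an adjusted p of 0.05, 0 over all 8 kidneys, was 1 (Gm22620) with sham kidneys alone, 5 with the prefix as a term and sham kidneys alone (Ndrg1, Tldc2, Snord17, Rn7sk and Gm22620), 6 with sample weights (Adar, Ciart, Glis1, Hs2st1, Ndrg1 and Prkacb) and 0 to 136 with 1 kidney left out, 136 without 32B5 and 2 without 32A1 (Gm26779 and Ugt2b37). Genes higher at an unadjusted p of 0.05 numbered 503 with sham kidneys alone and 543 to 1408 with 1 kidney left out, and lower ones 508 to 1198. Genes whose groups do not overlap numbered 779 to 2085 with 1 kidney left out, where 4 are compared with 3. The count for the difference of differences was 41 with a pseudocount of 1 RPKM, 231 with sample weights and 9 to 39 with 1 kidney left out. The cause was not tested. The log2 difference of Ctgf ran from −0.63 to −0.09 with 1 kidney left out. No paired analysis was possible because the labels pair no WT with a CCN2 KO kidney. Depth is unknown, so differences near the floor carry an error that was not estimated.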
